A study of Rattus norvegicus with 30 samples.

Results

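The immediate early genes are a small set of genes whose transcripts appear within minutes of a stimulus, because the factors that switch them on are already present in the cell. Here 10 of them were followed: Fos, Fosb, Jun, Junb, Egr1, Ier2, Ier3, Dusp1, Btg2 and Zfp36. They were taken as a named list, with no threshold on a measured value, and all 10 were found among the 17322 genes of the expression table. The members and the other lists below were chosen with earlier results of these data known. Their counts beside the shares of all genes are therefore a description and no test of the lists. They were described in rat testes of 6 ages and in testis explants cultured for 4 durations.

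The study compared testis tissue that matured in the animal with prepubertal tissue kept in organotypic culture. Wistar Han rats gave in vivo testes at 6 ages in days postpartum (dpp), of which 8.5 and 14.5 dpp were the youngest, 24.5 and 30.5 dpp came between, and 36.5 and 53.5 dpp were the oldest. Explants were pieces of testes dissected at 8.5 dpp and kept at the gas-liquid interphase on agarose for 6 days (D6), 16 days (D16), 22 days (D22) or 28 days (D28), in a medium with serum replacement, retinol and vitamin E. The D6 explants had therefore reached the age of the 14.5 dpp testes, D16 that of 24.5 dpp, D22 that of 30.5 dpp and D28 that of 36.5 dpp. The in vivo libraries of an age came from 3 different testes, and each explant library came from pooled explants, so the spread between explant libraries is a spread between pools. Before freezing, the necrotic centre of the explants was taken away with needles, which was not done for the testes. All groups had 3 libraries except the 14.5 dpp testes. Their replicate 3 carried the label outlier and was listed at 0 for all genes, so it was left out and n = 2 at that age, which leaves 29 libraries in 10 groups.

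Immediate early genes fall into a few roles. FOS and JUN family proteins pair to form the transcription factor AP-1, and EGR1 is a zinc finger factor that binds GC-rich promoters. DUSP1, BTG2 and ZFP36 are feedback proteins that end the response, by removing phosphate from MAP kinases, by holding back proliferation and by speeding the decay of messengers with AU-rich ends. MAP kinases, serum response factor and CREB are the usual switches, and gonadotropins and growth factors are known to induce Fos and Jun family genes in Sertoli and Leydig cells.

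Levels were given by the authors as FPKM, reads scaled to the length of the gene and the size of the library, so that levels may be compared between genes. Between 12520 and 13563 genes had a value above 0 in a library, and the sequencing depth itself was not in the file. The relative depth read from the smallest steps between FPKM values ran from 0.818 to 1.49 of that of D28 replicate 3. Differences are log2 of FPKM + 1, so that a gene near or under 1 FPKM shows a smaller log2 difference than its ratio. A gene was called where limma gave an adjusted p of at most 0.05 and the ratio of group medians was at least 2. Genes were tested if any group compared had a median of 0.5 FPKM or more. All 10 members passed that filter on low values in every comparison. A gene can pass it through 1 group alone, in the shares of all genes as in the lists. The limma p-values set a difference of group means against the spread between these libraries, which in explants is a spread between pools.

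In explants, the members as a set stood high at each culture time, while in the growing testis they declined with age. Summed over the 10 genes, the level was 212, 204 and 188 FPKM in the 8.5 dpp testes and 186 and 132 FPKM at 14.5 dpp. By 53.5 dpp the sum was down to 17.9, 16.9 and 19.1 FPKM. In D6 explants it was 320, 352 and 334 FPKM, in D16 explants 269, 257 and 268 FPKM, in D22 explants 424, 278 and 417 FPKM and in D28 explants 399, 242 and 231 FPKM. Every explant library thus lay above every testis library in this sum. The abundant members weigh most in it: at D28 the group means were 71.2 FPKM for Jun and 59.9 FPKM for Ier3, but 0.968 FPKM for Fosb. In bulk tissue, fewer cells of a type and less RNA per cell cannot be told apart, and this holds for all the levels given here. For 6 members (Fos, Fosb, Junb, Ier3, Btg2 and Zfp36), each of the 12 explant libraries was above each of the 17 testis libraries, as was the case for 4.97% of the 12762 genes detected in any group. The other members overlapped: the number of explant libraries above all testes was 5 for Egr1, 4 for Dusp1, and 1 each for Jun and Ier2.

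**Figure D1:**
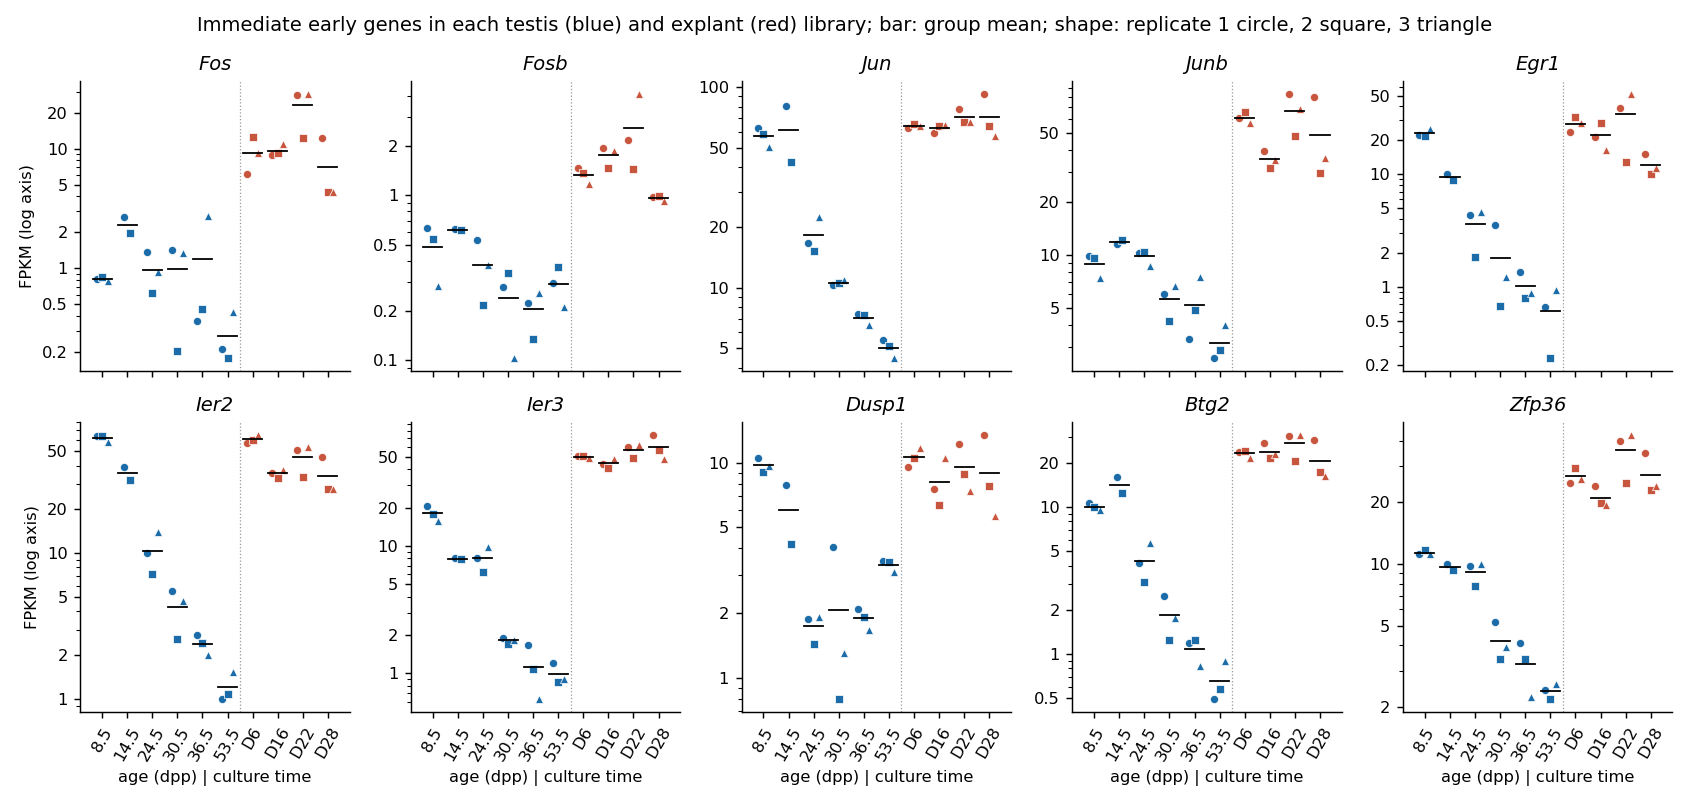
FPKM on a log axis of each of the 10 members in each library, with in vivo testes by age in blue on the left of the dotted line and explants by culture time in red on the right; bars are group means and shapes are replicate numbers. For 6 members all 12 explant points lie above all 17 testis points, while Jun, Egr1, Ier2 and Dusp1 overlap with the young testes.

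Among the AP-1 genes, Junb (gene ID 24517, chromosome 19), a JUN family protein that pairs with FOS proteins and can curb the activity of JUN, was among the members whose explants stood clear of all testes. Its testis values were 9.86, 9.61 and 7.40 FPKM at 8.5 dpp, 11.6 and 12.2 FPKM at 14.5 dpp, 10.3, 10.4 and 8.70 FPKM at 24.5 dpp and 2.58, 2.86 and 3.98 FPKM at 53.5 dpp. At D6 it was 60.4, 65.5 and 56.9 FPKM, at D16 39.1, 31.5 and 35.2 FPKM, at D22 83.0, 47.7 and 68.3 FPKM and at D28 80.3, 29.5 and 35.8 FPKM. The lowest explant value, in D28 replicate 2, was thus more than double the highest testis value. Relative to 14.5 dpp, Junb rose by 2.26 at D6 (SE 0.124, limma adjusted p = 6.02e-04). For D16, D22 and D28 it rose by 1.49, 2.35 and 1.81 on the log2 scale (SE 0.364 each). Its adjusted p of 0.00516 comes, as for every gene in these 3 comparisons, from 1 moderated F test over D16, D22 and D28 together, which share the same 14.5 dpp libraries. From high to low, the group means ran D22, D6, D28, D16, then 14.5 dpp, 24.5 dpp, 8.5 dpp, 30.5 dpp, 36.5 dpp, with 53.5 dpp last, and the 4 explant groups overlapped as neighbours, as did 24.5 with 8.5 dpp and the 3 oldest ages.

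Promoter windows of 300 bases, 250 before and 50 after the transcription start, were available from RefSeq (GRCr8) for 7 of the 10 members: Fosb, Junb, Egr1, Ier2, Dusp1, Btg2 and Zfp36. The set of windows used here held none for Fos, Jun and Ier3. Those of Junb and Zfp36 are shown because both genes were called at all 4 culture times against 14.5 dpp, and those of Ier2, Dusp1 and Btg2 because they share a motif. The Junb window is chr19:40080876-40081175 on the plus strand, that of Zfp36 chr1:92799059-92799358 on the minus strand, that of Ier2 chr19:40399123-40399422 on the plus strand, that of Dusp1 chr10:17184603-17184902 on the plus strand and that of Btg2 chr13:48087641-48087940 on the minus strand. Each is written 5′ to 3′ on the strand of the gene, and capitals mark every match to a motif searched.
Junb: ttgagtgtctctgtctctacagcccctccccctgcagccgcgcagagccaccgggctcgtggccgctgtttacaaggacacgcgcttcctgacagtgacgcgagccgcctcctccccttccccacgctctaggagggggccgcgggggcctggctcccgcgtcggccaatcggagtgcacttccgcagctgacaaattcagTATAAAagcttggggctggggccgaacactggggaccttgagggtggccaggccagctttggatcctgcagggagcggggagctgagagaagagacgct
Zfp36: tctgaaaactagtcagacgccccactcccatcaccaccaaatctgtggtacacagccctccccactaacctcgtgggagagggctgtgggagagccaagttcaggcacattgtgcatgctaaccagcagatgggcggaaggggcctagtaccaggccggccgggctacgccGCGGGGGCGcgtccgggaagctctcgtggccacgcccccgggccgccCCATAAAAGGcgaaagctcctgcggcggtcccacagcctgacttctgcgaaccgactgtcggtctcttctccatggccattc
Ier2: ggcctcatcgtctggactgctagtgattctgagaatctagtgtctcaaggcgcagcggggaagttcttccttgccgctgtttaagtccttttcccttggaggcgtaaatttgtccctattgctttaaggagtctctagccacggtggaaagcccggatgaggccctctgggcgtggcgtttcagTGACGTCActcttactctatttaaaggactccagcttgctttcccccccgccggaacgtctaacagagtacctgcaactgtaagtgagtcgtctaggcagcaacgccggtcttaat
Dusp1: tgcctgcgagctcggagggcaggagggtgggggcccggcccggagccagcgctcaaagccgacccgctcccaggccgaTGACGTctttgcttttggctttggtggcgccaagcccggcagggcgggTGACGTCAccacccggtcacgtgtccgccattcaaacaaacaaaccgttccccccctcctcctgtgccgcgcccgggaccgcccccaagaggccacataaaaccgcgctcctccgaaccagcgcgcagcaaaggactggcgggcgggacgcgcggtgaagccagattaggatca
Btg2: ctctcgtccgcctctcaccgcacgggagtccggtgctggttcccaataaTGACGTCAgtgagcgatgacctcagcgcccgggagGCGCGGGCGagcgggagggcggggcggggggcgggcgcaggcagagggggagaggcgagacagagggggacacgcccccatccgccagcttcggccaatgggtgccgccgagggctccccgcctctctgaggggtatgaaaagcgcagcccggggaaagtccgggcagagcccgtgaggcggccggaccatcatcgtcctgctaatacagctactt

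On both strands, 7 motifs were searched in the 7 windows and in all 33469 windows of the RefSeq table. The full cAMP response element TGACGTCA was in 3 of the 7 members and in 1.83% of all windows. It began 66 bases before the start in Ier2, 124 before it in Dusp1 and 201 before it in Btg2. Its core TGACGT, which lies in the full element on both strands, was in 4 of 7 members and in 7.94% of all windows, with further matches in Dusp1 and, outside a full element, in Egr1. The EGR motif GCGNGGGCG was found in Btg2 and Zfp36, against 4.98% of all windows. The CArG box, the motif of serum response factor, was found in Egr1 and Zfp36, against 1.64% of all windows, with the Zfp36 match 32 bases before the start. A TATAAA motif was in Fosb (on the reverse strand) and Junb, where it began 49 bases before the start, and in 14.2% of all windows. The AP-1 motif TGANTCA, held by 7.33% of windows, and the NF-kB motif, held by 7.51%, had no match in the 7 members. These matches describe letters in the windows and are no measure of binding.

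Fos (gene ID 314322, chromosome 6), the partner of the JUN proteins in AP-1, was low in every testis. Its values were 0.813, 0.835 and 0.780 FPKM at 8.5 dpp and 2.66 and 1.97 FPKM at 14.5 dpp, and 0.358, 0.456 and 2.76 FPKM at 36.5 dpp, where replicate 3 stood apart from the other 2. In D6 explants it was 6.15, 12.5 and 9.14 FPKM, in D16 explants 8.91, 9.18 and 10.9 FPKM, in D22 explants 28.3, 12.3 and 28.6 FPKM and in D28 explants 12.4, 4.36 and 4.34 FPKM. No explant library overlapped with a testis, and at D28 replicate 1 was nearly triple the other 2. Compared with the tissue of origin at 8.5 dpp, Fos had risen by 2.45 on the log2 scale at D6 (SE 0.212, limma adjusted p = 1.65e-04). Relative to 14.5 dpp, the differences were 1.69, 2.78 and 1.14 at D16, D22 and D28 (SE 0.432 each, adjusted p = 0.00503 for the 3 together). At D28 the ratio of medians was 1.88, under the 2 needed for a call. That absence of a call rests on single libraries: Fos was called at D28 without 14.5 dpp replicate 1 (log2 difference 1.29), without D28 replicate 2 (1.36) or without D28 replicate 3 (1.36). D22 was the highest group and did not overlap with D16, its neighbour, though it did with D6 and D28. Next came D16, D6 and D28, which overlapped as neighbours. Below them were the testes from 14.5 dpp (then 36.5, 30.5, 24.5) down to 8.5 dpp, which also overlapped as neighbours. The 53.5 dpp testes came last, apart from 8.5 dpp but overlapping with 30.5 and 36.5 dpp.

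Fosb (gene ID 100360880, chromosome 1), a close relative of Fos, was the member with the lowest levels in explants. The testis values lay between 0.103 and 0.630 FPKM with a median of 0.294 FPKM over the 17 libraries. Explants gave 1.47, 1.37 and 1.17 FPKM at D6, 1.94, 1.47 and 1.87 FPKM at D16, 2.17, 1.44 and 4.11 FPKM at D22 and 0.975, 0.999 and 0.930 FPKM at D28. All explant values were above all testis values, and D22 replicate 3 was the highest library. Against 14.5 dpp the log2 differences were 0.76 at D16 and 1.07 at D22, both called, and 0.28 at D28, not called with a ratio of medians of 1.57 (SE 0.242, adjusted p = 0.0203). The calls at D16 and D22 were lost without either 14.5 dpp library, with an adjusted p of 0.0621 without replicate 1 and 0.0658 without replicate 2. In order, Fosb ran from D22, D16 and D6, which overlapped, to D28 and then to the 14.5 dpp testes, which overlapped with 8.5 dpp.

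Jun (gene ID 24516, chromosome 5), the AP-1 subunit that can pair with itself or with FOS, behaved differently from these 3 genes. It was abundant in the young testes, with 62.4, 58.4 and 50.6 FPKM at 8.5 dpp and 80.2 and 42.2 FPKM at 14.5 dpp, and down to 5.50, 5.11 and 4.47 FPKM at 53.5 dpp. Explants held 62.6, 65.9 and 63.8 FPKM at D6, 58.9, 64.3 and 65.0 FPKM at D16, 77.8, 67.1 and 67.2 FPKM at D22 and 92.3, 64.3 and 57.1 FPKM at D28. These levels lay in the range of the 8.5 and 14.5 dpp testes apart from D28 replicate 1. Its difference from 8.5 dpp at D6 was 0.17 (SE 0.0981, limma adjusted p = 0.196), and those from 14.5 dpp at D16, D22 and D28 were 0.11, 0.27 and 0.26 (SE 0.257, adjusted p = 0.732). The sign of the latter turns without 14.5 dpp replicate 2, to -0.35, -0.18 and -0.20. All 6 groups from D28 down to 8.5 dpp were close, with D22 and D6 the only neighbours among them that did not overlap, and the 4 older ages followed with no overlap between neighbours.

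Egr1 (gene ID 24330, chromosome 18), the zinc finger factor, had 22.3, 22.0 and 25.0 FPKM at 8.5 dpp and 10.0 and 8.85 FPKM at 14.5 dpp, and was at 1.36, 0.802 and 0.874 FPKM by 36.5 dpp. In explants it held 23.6, 32.1 and 28.7 FPKM at D6, 21.4, 28.4 and 16.6 FPKM at D16, 39.1, 12.9 and 51.3 FPKM at D22 and 15.1, 10.1 and 11.3 FPKM at D28. D6 and D16 explants therefore stood near the 8.5 dpp tissue of origin rather than the 14.5 dpp testes, and the D22 libraries were far apart, with replicate 2 the lowest and replicate 3 the highest. Compared with 14.5 dpp, Egr1 rose at D6 by 1.47 (SE 0.163, limma adjusted p = 0.00496), while its difference from 8.5 dpp was 0.26 (SE 0.125, adjusted p = 0.124). For D16, D22 and D28 the differences from 14.5 dpp were 1.12, 1.56 and 0.32 (SE 0.467), with an adjusted p of 0.0603 that missed the threshold. Without D22 replicate 2, the lowest library of that group, this adjusted p was 0.00182 and Egr1 was called at D16 and, with a log2 difference of 2.14, at D22. In all, 2 of 22 fits under the settings and libraries left out called it at D16, and 3 of 22 at D22. In order of level, D22, D6, 8.5 dpp and D16 overlapped, D28 and 14.5 dpp stood apart from their neighbours, and the 4 older ages overlapped.

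Of the 2 genes named only for their early response, Ier3 (gene ID 294235, chromosome 20), which is induced by NF-kB and stress and acts on cell survival, was clear of the testes at every culture time. It declined in vivo from 20.7, 17.8 and 15.6 FPKM at 8.5 dpp to 8.0 and 7.88 FPKM at 14.5 dpp and 1.20, 0.856 and 0.910 FPKM at 53.5 dpp. Explants held 50.9, 50.8 and 49.5 FPKM at D6, 44.4, 40.9 and 48.2 FPKM at D16, 60.3, 48.7 and 62.4 FPKM at D22 and 74.8, 56.7 and 48.3 FPKM at D28. The lowest explant value was thus far above the highest testis value, and the libraries within D6 and D16 were close to each other. Ier3 rose by 1.44 from 8.5 dpp to D6 (SE 0.110, limma adjusted p = 1.04e-04). Against 14.5 dpp it was higher by 2.52 at D6 (SE 0.111, adjusted p = 4.25e-04). The later differences from 14.5 dpp were 2.34, 2.69 and 2.75 (SE 0.175, adjusted p = 4.27e-05). D28, D22 and D6 overlapped at the top, D16 and 8.5 dpp stood apart from their neighbours, and the 24.5 and 14.5 dpp testes overlapped.

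Ier2 (gene ID 494344, chromosome 19), which encodes a nuclear protein, was already abundant at 8.5 dpp and was not called between the tissue of origin and D6. It stood at 63.4, 64.0 and 57.7 FPKM at 8.5 dpp, 39.3 and 32.0 FPKM at 14.5 dpp and 10.0, 7.19 and 14.0 FPKM at 24.5 dpp. Explants had 56.8, 59.6 and 65.2 FPKM at D6, 35.9, 32.9 and 37.4 FPKM at D16, 50.8, 33.5 and 53.9 FPKM at D22 and 46.1, 27.4 and 27.7 FPKM at D28. Of the D6 explants, 1 library thus lay under, 1 within and 1 above the range of the 8.5 dpp testes, and the later explants lay on both sides of the 14.5 dpp testes. Its log2 difference was -0.03 from 8.5 dpp to D6 (SE 0.0903, limma adjusted p = 0.817) and 0.75 from 14.5 dpp to D6 (SE 0.143, adjusted p = 0.0242), where the ratio of medians of 1.67 kept it from a call. The later differences from 14.5 dpp lay between -0.11 and 0.34 (SE 0.250, adjusted p = 0.370). The D16 value turned to 0.047 when libraries were rescaled by their median ratio. In its order, 8.5 dpp and D6 overlapped, D22, 14.5 dpp, D16 and D28 overlapped in turn, and 24.5 dpp and the older ages followed.

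Of the feedback genes, Zfp36 (gene ID 79426, chromosome 1), which codes for the messenger decay protein tristetraprolin, was higher in all explants. It had 11.1, 11.7 and 11.2 FPKM at 8.5 dpp, 10.0 and 9.37 FPKM at 14.5 dpp, 9.74, 7.84 and 9.96 FPKM at 24.5 dpp and 2.41, 2.20 and 2.58 FPKM at 53.5 dpp. In explants it reached 24.8, 29.5 and 26.1 FPKM at D6, 23.9, 19.9 and 19.5 FPKM at D16, 39.9, 24.8 and 42.8 FPKM at D22 and 34.7, 22.9 and 24.0 FPKM at D28. The values of the 3 youngest ages were close together and all lay below the lowest explant value of 19.5 FPKM. From 8.5 dpp to D6 it rose by 1.17 (SE 0.0904, limma adjusted p = 1.12e-04), and against 14.5 dpp by 1.37 at D6 (SE 0.130, adjusted p = 0.00289). At D16, D22 and D28 the rises were 1.04, 1.75 and 1.37 (SE 0.237, adjusted p = 0.00247). At D16 its ratio of medians was 2.05, and the call was lost without 14.5 dpp replicate 2 (log2 difference 0.99). D22, D28 and D6 overlapped at the top of its order, followed by D16, 8.5 dpp, and the overlapping 14.5 and 24.5 dpp testes.

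Btg2 (gene ID 29619, chromosome 13), an anti-proliferative target of p53, was called at D6 against 8.5 dpp but at no time against 14.5 dpp. The testes held 10.7, 9.97 and 9.54 FPKM at 8.5 dpp, 16.0 and 12.5 FPKM at 14.5 dpp and 0.498, 0.578 and 0.894 FPKM at 53.5 dpp. Explants held 23.8, 24.3 and 21.8 FPKM at D6, 27.1, 21.7 and 23.0 FPKM at D16, 30.4, 20.7 and 31.1 FPKM at D22 and 28.7, 17.4 and 16.3 FPKM at D28. D28 replicates 2 and 3 came close to 14.5 dpp replicate 1, with no overlap. The rise from 8.5 dpp to D6 was 1.13 (SE 0.0857, limma adjusted p = 1.01e-04). From 14.5 dpp, the differences were 0.68 at D6 (SE 0.146, adjusted p = 0.0317, ratio of medians 1.67) and 0.72, 0.89 and 0.48 later (SE 0.250, adjusted p = 0.0738), none of them called. It was called at D22 without D22 replicate 2 (adjusted p = 0.0435) or without D28 replicate 1 (adjusted p = 0.0178). In all, 5 of 22 fits under the settings and libraries left out called it at D22. The 4 explant groups overlapped in the order D22, D16, D6 and D28, and the testes followed by 14.5, 8.5 and the older ages, with overlap only between 36.5 and 53.5 dpp.

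Dusp1 (gene ID 114856, chromosome 10), the MAP kinase phosphatase, was not called at D6 against 8.5 dpp. Nor was it called at any culture time against 14.5 dpp. It had 10.5, 9.11 and 9.61 FPKM at 8.5 dpp, 7.86 and 4.21 FPKM at 14.5 dpp, 1.88, 1.44 and 1.92 FPKM at 24.5 dpp and 3.49, 3.46 and 3.12 FPKM at 53.5 dpp. In explants the values were 9.51, 10.6 and 11.7 FPKM at D6, 7.57, 6.33 and 10.5 FPKM at D16, 12.3, 8.90 and 7.42 FPKM at D22 and 13.5, 7.77 and 5.67 FPKM at D28. Explants and the 2 youngest ages overlapped, and the 53.5 dpp testes were above those of 24.5 dpp. In limma the log2 difference was 0.11 from 8.5 dpp to D6 (adjusted p = 0.425), 0.77 from 14.5 dpp to D6 (adjusted p = 0.0788), and between 0.40 and 0.61 at the later times (adjusted p = 0.505). Without 14.5 dpp replicate 1 it was called at D6 against 14.5 dpp, with a difference of 1.15 and an adjusted p of 0.0270. All 6 groups from D6 down to 14.5 dpp overlapped as neighbours in its order, and so did the 4 older ages.

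The comparison of D6 explants with 8.5 dpp testes asks what differed between cultured tissue and the age at which it was dissected. Here Fos, Fosb, Junb, Ier3, Btg2 and Zfp36 rose, and Jun, Egr1, Ier2 and Dusp1 were not called. These are 6 of 10 members, with 9.89% of the 11216 genes tested called higher and 6.39% lower, and the member median was 0.90 on the log2 scale against 0.05 over all genes. All 6 calls were made without each library in turn. Both groups came from 8.5 dpp pups, and the needle step, the pooling and the culture itself cannot be told apart. Markers of cell types were called here too. Higher at D6 were macrophage Cd14 (1.46), Cd68 (1.14) and Adgre1, and endothelial Pecam1 (1.21) and Kdr (0.80). Adgre1 passed the filter through the explants alone. Sertoli Cldn11 and germ cell Dazl, Sycp3 and Dmc1 were also higher. Lower were Leydig Cyp17a1 (-6.11), Insl3 (-4.41) and Cyp11a1 (-3.22), peritubular Acta2, Myh11, Cnn1 and Tagln, and stromal Col1a1. No other marker tested was called. The part of these cell types was not tested.

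In D6 explants against testes of the same age, 14.5 dpp, Egr1 joined the called members and Btg2 left them. The study itself left D6 out of its test, for differences in cellular composition. The 6 of 10 members called higher were Fos, Fosb, Junb, Egr1, Ier3 and Zfp36, with 5.57% of 11309 genes called higher and 2.37% lower, and the member median was 1.07 against -0.04 over all genes. Junb, Egr1, Ier3 and Zfp36 were called without each library in turn. The Fos call (log2 1.59, adjusted p = 0.0184) was lost without 14.5 dpp replicate 1 (adjusted p = 0.0543), 14.5 dpp replicate 2 (0.0905) or D6 replicate 3 (0.0708). Fosb (log2 0.53, adjusted p = 0.0375) was lost without any of the 5 libraries, with an adjusted p between 0.0650 without D6 replicate 3 and 0.137 without D6 replicate 1. With a replicate block neither was called, Fos with an adjusted p of 0.0793 and Fosb with 0.109, and 292 genes were called higher in place of 630. How the 14.5 dpp rats were killed was not stated, so in all comparisons of explants with 14.5 dpp testes a part of killing in the differences cannot be told apart from that of culture.

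Across the later culture times, the comparison with 14.5 dpp testes, which is the one the study tested, called 5, 5 and 3 members. Fos, Fosb, Junb, Ier3 and Zfp36 were called at D16, which is 5 of 10 members with 6.56% of the 11517 genes tested called higher and 5.35% lower. The same 5 were called at D22, with 7.34% of genes called higher and 5.51% lower. At D28 there were 3 of 10, Junb, Ier3 and Zfp36, with 7.64% of genes called higher and 6.00% lower. Jun, Egr1, Ier2, Dusp1 and Btg2 were called at none of the 3 times, and no member was called lower. Medians over the 10 members were 0.90, 1.32 and 0.48 at D16, D22 and D28, against -0.05, -0.05 and -0.08 over all genes. Whether D28 differed from D22 in this was tested only by the comparison of culture times. The D16 count was 3 without 14.5 dpp replicate 2 and 4 without replicate 1 of that age.

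**Figure D2:**
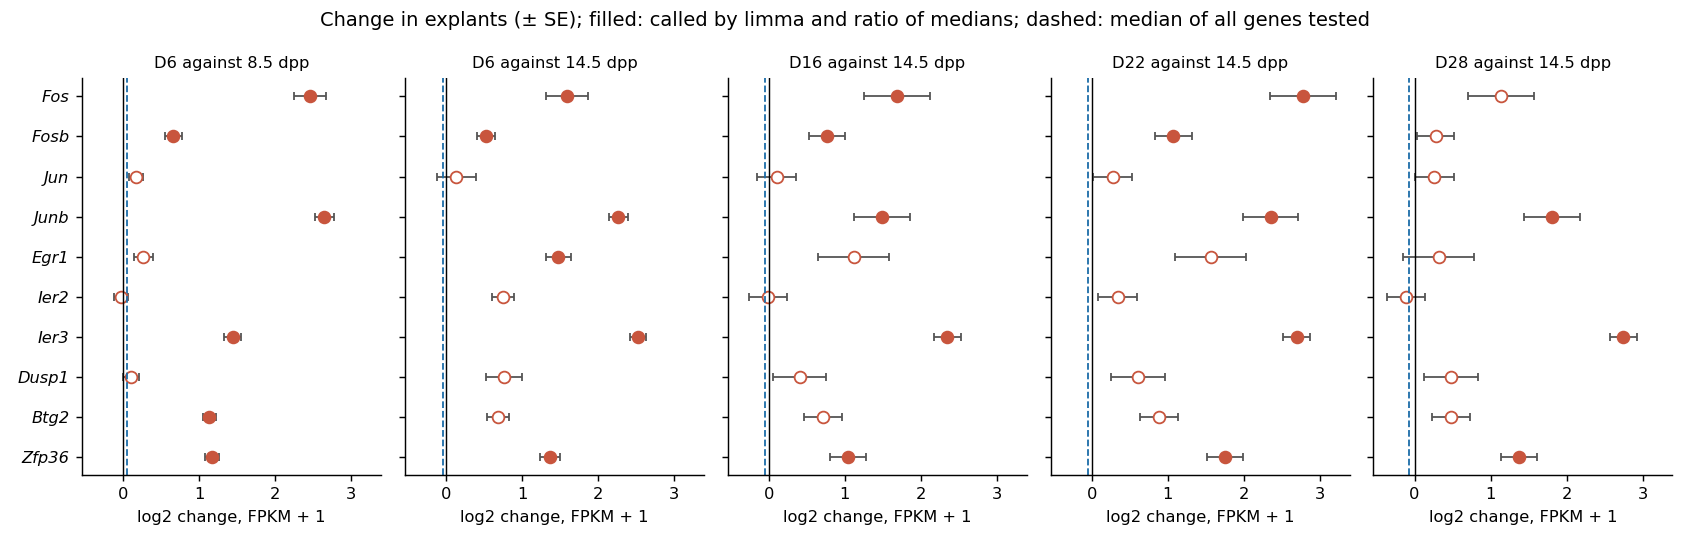
Log2 change on the FPKM + 1 scale (horizontal axis, bars are SE) of each member in explants against 8.5 or 14.5 dpp testes, with filled points for called genes and the dashed line at the median of all genes tested. Junb, Ier3 and Zfp36 are filled in all 5 panels, and Jun, Ier2 and Dusp1 in none.

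Against testes of the same age from D16 on, all members were higher. The pups of 8.5 dpp, the source of the explants, were decapitated and pubertal and adult rats were killed with CO2, so this and the culture cannot be told apart. All 10 members were higher at D16 than at 24.5 dpp, at D22 than at 30.5 dpp and at D28 than at 36.5 dpp. For these 3 comparisons the shares of all genes called higher were 25.3%, 42.1% and 46.7% (called lower 18.3%, 22.9% and 23.6%), so that a member is read here against a large background. Median differences were 1.74, 3.25 and 2.82 over the members, against 0.12, 0.51 and 0.64 over all genes. Those of Ier3 were the largest at both D22 and D28, 4.36 at D22 (SE 0.119, limma adjusted p = 1.78e-07) and 4.84 at D28 (SE 0.224, adjusted p = 7.87e-07). The smallest at D28 was that of Fosb, 0.71, with medians of 0.223 FPKM in testes and 0.975 FPKM in explants. In these 3 comparisons Fosb passed the filter on low values through the explants alone, as did Fos at D28, so that without them 9, 9 and 8 members were called. With no filter on low values both were still called. Scaling by the median ratio moved the median of all genes at D22 from 0.51 to 0.03 and at D28 from 0.64 to 0.06. Under it all 10 members kept their direction, with calls for 10 at D22 and D28 and for 9 at D16, where Zfp36 fell under the ratio of 2.

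**Figure D3:**
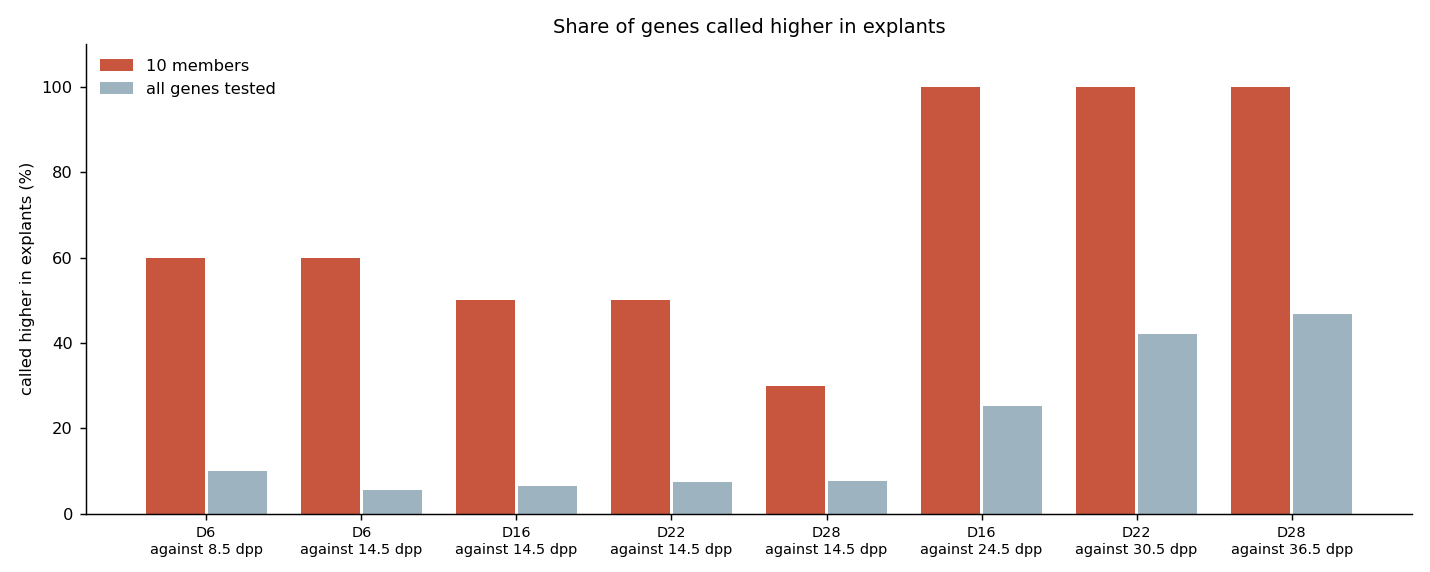
Percent of the 10 members (red) and of all genes tested (grey) called higher in explants in 8 comparisons named under the bars. In comparisons with 8.5 or 14.5 dpp testes 3 to 6 of 10 members are called against 5.57 to 9.89% of all genes, and in those with testes of the same age from D16 on all 10 against 25.3 to 46.7%.

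In vivo, 9 of the 10 members differed across the 6 ages and were lower at 53.5 than at 8.5 dpp. Of these, Fosb passed the filter on low values through the 8.5 and 14.5 dpp testes alone, with medians of 0.541 and 0.621 FPKM. The others had a median above 0.5 FPKM at every age. Killing by decapitation at 8.5 dpp and by CO2 in pubertal and adult rats cannot be told apart from age here. Of 12531 genes tested, 90.2% were called over the ages and 59.4% were called and lower at 53.5 dpp. The differences from 8.5 to 53.5 dpp ran from -0.20 for Fosb to -4.83 for Ier2 among those 9, with a median over the 10 members of -2.30 against -0.74 over all genes. Median-ratio scaling brought this last value to -0.03 and took Fosb under the filter on low values. The other 9 members kept a negative sign under it, with 7 called and Junb (log2 -1.27, limma adjusted p = 4.22e-05) at -0.45 with an adjusted p of 0.154 and not called. With quantile normalization Junb was not called either, at -0.49 with an adjusted p of 0.0635. Fos was not called (log2 -0.51, adjusted p = 0.0620) but was with a replicate block. It was also called without 30.5 dpp replicate 2 (adjusted p = 0.0237), 36.5 dpp replicate 1 (0.0376) or 36.5 dpp replicate 3 (0.00262), its highest older testis. The Fosb call (adjusted p = 0.0326) was lost without 6 of the 17 libraries: 8.5 dpp replicates 1 (0.0540) and 2 (0.0606), both 14.5 dpp libraries (0.0858 and 0.0850) and 36.5 dpp replicates 1 (0.0535) and 2 (0.0677).

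Spermatid transcripts reached high levels in the older testes over the same ages. The sum of 6 spermatid markers (Prm1, Prm2, Tnp1, Tnp2, Acrv1 and Spaca1) was 6.42, 7.11 and 3.64 FPKM at 8.5 dpp, 5658, 5678 and 3889 FPKM at 36.5 dpp and 20873, 22818 and 15032 FPKM at 53.5 dpp. All 6 of them rose in vivo, with Tnp1 the most abundant, and explants at D28 had 4.51, 4.44 and 3.56 FPKM, with Prm1, Prm2, Tnp1 and Acrv1 at 0 in all 3 libraries. The 5 markers of spermatogonia and spermatocytes (Ddx4, Dazl, Sycp3, Sycp1 and Dmc1) were also all higher at 53.5 than at 8.5 dpp. Of these, Dazl, Sycp3, Sycp1 and Dmc1 were highest at 24.5 dpp and lower again at each later age. Of the Sertoli markers (Sox9, Wt1, Amh, Gata4, Cldn11, Fshr and Rhox5), Sox9, Wt1, Amh, Gata4 and Fshr went the other way and were called over the ages and lower at 53.5 than at 8.5 dpp, and all 7 together had summed levels of 689, 539 and 495 FPKM at 8.5 dpp and 74.5, 67.6 and 72.5 FPKM at 53.5 dpp. Cldn11, also called over the ages, had 130, 33.9 and 25.0 FPKM at 8.5 dpp, 454 and 406 FPKM at 14.5 dpp and 49.6, 42.1 and 43.3 FPKM at 53.5 dpp, so that the side on which its 8.5 dpp mean lies rests on replicate 1. The part of these cell types in the decline of the members was not tested.

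Over the 4 culture times, 1 of the 10 members was called, as were 6.71% of the 11358 genes tested, with 3.21% of the genes tested called and lower at D28. This was Ier2, which fell by 0.86 on the log2 scale from D6 to D28 (SE 0.209, limma adjusted p = 0.0375). Fos had an adjusted p of 0.0509 with D22 as its highest time, and Fosb one of 0.0695. The count rests on single libraries. Without D22 replicate 2 it was 5, with Fos, Fosb, Egr1 and Zfp36 (adjusted p = 0.0233, 0.0137, 0.00394 and 0.0222) called beside Ier2. Without D28 replicate 1 it was 3, with Fos (0.00965) and Junb (0.00756) beside Ier2. It was 0 without any of the D6 libraries, any of the D16 libraries, D22 replicate 1, D28 replicate 2 or D28 replicate 3, where the adjusted p of Ier2 lay between 0.0537 and 0.116.

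Whether the gap to the testis of the same age changed from D6 to D28 was tested in 1 fit of all groups, with 51.8% of the 12762 genes tested having a higher difference at D28 and 78.0% a difference in either direction. The gap widened for 5 of 10 members, Jun, Ier2, Ier3, Btg2 and Zfp36, a share close to that of all genes, with a member median of 1.29 against 0.58. For Jun it was wider by 2.99 on the log2 scale (SE 0.266, limma adjusted p = 7.65e-10). Jun in explants was between 62.8 and 71.2 FPKM in the group means, while in testes it went from 61.2 FPKM at 14.5 dpp to 7.08 FPKM at 36.5 dpp. Fos (log2 0.31) and Junb (0.65) were not called, and both turned sign under median-ratio scaling, to -0.088 and -0.011, with a median of all genes of 0.08 in place of 0.58. Egr1 and Dusp1 missed the threshold with an adjusted p of 0.0521 and 0.0519, and both were called with a replicate block. Leaving out 1 library could also bring either of them past it. This held for Egr1 without 24.5 dpp replicate 2, 30.5 dpp replicates 1 or 2, 36.5 dpp replicate 1, D22 replicates 2 or 3, or D28 replicate 2, with an adjusted p between 0.0151 and 0.0488. For Dusp1 it held without 14.5 dpp replicate 2, 30.5 dpp replicates 1 or 2, D22 replicate 1 or D28 replicate 3, with an adjusted p between 0.0157 and 0.04998. Junb was called without D28 replicate 2 (adjusted p = 0.0390).

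At D22 and D28, but not at D6 and D16, a single library was the highest or the lowest of its group for 8 or more of the 10 members. At D22, replicate 2 had the lowest value for 9 of 10 members, against 32.0% of all genes, and the median deviation of the members from their group mean was -0.42 on the log2 scale there. At D28, replicate 1 had the highest value for 9 of 10 members, against 44.4% of all genes, with a median deviation of 0.44. In both groups the median SD of log2 level was larger for the members than for all genes, 0.382 against 0.110 at D22 and 0.386 against 0.163 at D28. At D6 and D16 it was 0.0997 against 0.131 and 0.147 against 0.0908, and no library there was the highest or the lowest for more than 6 members. Testes of 3 ages also had a library that was the lowest for 8 or more members. This was replicate 2 each time, the lowest for 9 of 10 members at 14.5 dpp (42.9% of all genes), for 9 at 24.5 dpp (39.4%) and for 8 at 30.5 dpp (51.4%), with a median SD of 0.159 against 0.132, 0.277 against 0.169 and 0.302 against 0.160. Relative depth was 1.20, 1.10 and 0.987 for the D22 replicates and 0.873, 0.954 and 1 for those of D28. Macrophage markers summed to 102, 66.6 and 65.6 FPKM at D22 and 132, 71.8 and 76.3 FPKM at D28, highest in replicate 1 of both. The D22 sums of replicates 2 and 3 were close to each other. The part of either measure in the spread of the members was not tested.

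**Figure D4:**
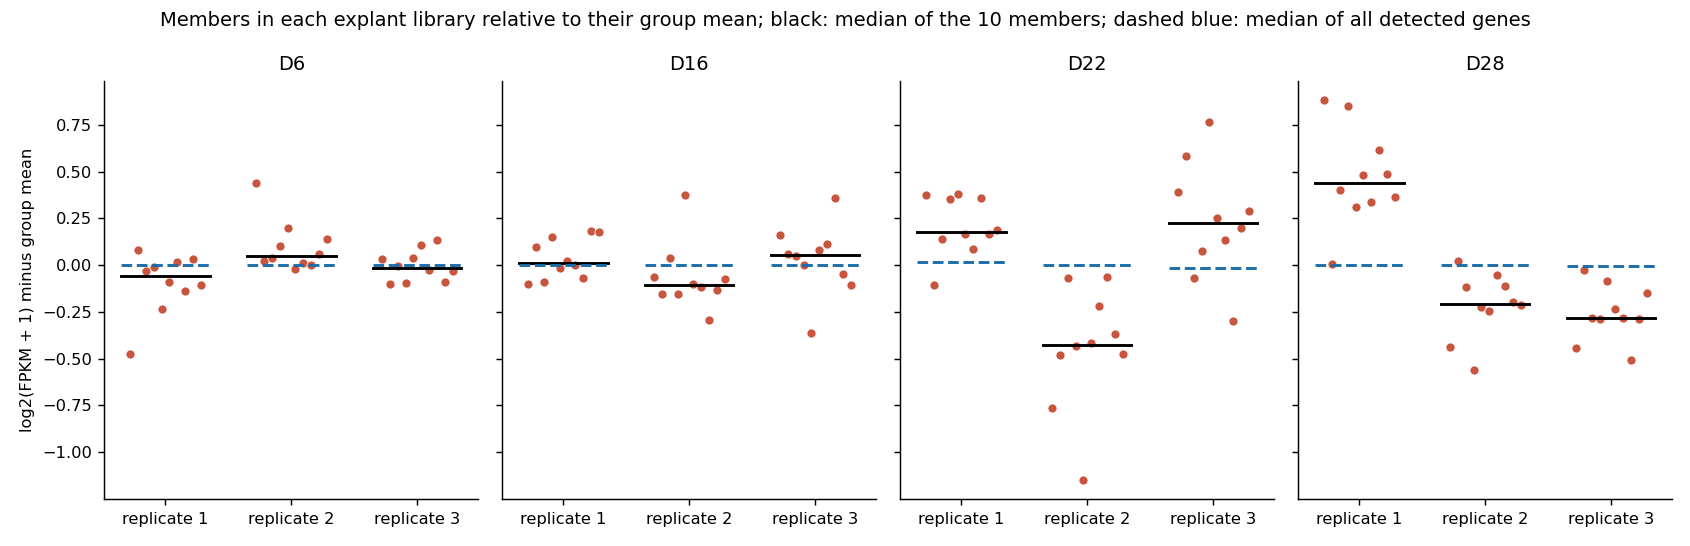
Log2(FPKM + 1) of each of the 10 members in each explant library minus the mean of its culture time (points), with the median of the members in black and the median of all detected genes in dashed blue. D22 replicate 2 sits at a member median of -0.42 and D28 replicate 1 at 0.44, while the median of all genes stays near 0.

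Other genes of the early response were followed as lists, and at D28 against 14.5 dpp most of their genes were not called. The shares of all genes beside which the counts of these lists and of the cell type markers are read were 5.57% higher and 2.37% lower at D6, 6.56% and 5.35% at D16, 7.34% and 5.51% at D22, and 7.64% and 6.00% at D28. Of the other AP-1 and small MAF genes, 2 of 9 tested were higher at D28 and none lower, with 7.64% of all genes higher. They were Atf3, a stress-induced AP-1 partner (log2 1.23, SE 0.299, adjusted p = 0.00670), and Maff, a small MAF protein (1.16, SE 0.149, adjusted p = 6.03e-04). Mafk and Fosl2 had differences of 0.72 and 0.66 and were not called. Counts were 3 of 8 higher at D6, with Fosl2 (1.55) as the third gene, and 2 of 9 higher at D16 and D22, where Batf3 was lower (by -1.04 and -0.89). The list had a median of 0.37 at D28 against -0.08 over all genes.

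Of 12 other early transcription factors, 3 were higher at D16, D22 and D28 (6.56%, 7.34% and 7.64% of all genes): Egr2, Egr3 and Csrnp1. At D28, Csrnp1 differed from 14.5 dpp by 1.33 (limma adjusted p = 0.00626), Egr3 by 0.64 (0.0412) and Egr2 by 0.50 (0.04996), the last at group means of 0.203 and 0.70 FPKM. Egr2 and Egr3 (0.285 FPKM at 14.5 dpp) passed the filter on low values through the explants alone at all 4 culture times, so that Csrnp1 is the call at D16, D22 and D28 that does not rest on this. Nr4a1, an orphan nuclear receptor of the same early wave, had the largest difference of the list, -1.54, and was not called (adjusted p = 0.0879). At D6, Myc (1.48) was higher as well and Klf2 (-0.89) lower, so that 4 of 12 were higher and 1 lower, with 5.57% and 2.37% of all genes. The median of the list at D28 was 0.04 against -0.08 over all genes.

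Feedback regulators other than the members were higher in 5 of 13 at D6 and in 6 of 13 at D16, D22 and D28, and none was lower, with 5.57%, 6.56%, 7.34% and 7.64% of all genes higher. At D28 these were Gadd45b, a growth arrest gene (log2 2.04, adjusted p = 1.75e-04), Dusp4 (1.75, 1.21e-04) and Dusp5 (1.59, 1.53e-04), phosphatases of MAP kinases, Spry4, an inhibitor of growth factor signalling (1.44, 3.50e-04), and Dusp6 and Ier5. This median was 0.50 at D28 against -0.08 over all genes. Dusp4, Dusp5 and Dusp6 were thus called at D28 where Dusp1 was not, a difference between genes that was not tested. Early effectors, the products that act outside transcription, were higher in 3 of 11 at D6 and D16 and in 4 of 11 at D22 and D28, beside the same shares of all genes, with a D28 median of 0.67. At D28 the called ones were Plk2 (1.62, adjusted p = 7.45e-04), Sgk1 (0.99, 0.00226), Ccn2 and Ptgs2, while Phlda1 (0.98, 0.0613) was not. Ptgs2, at 0.0255 FPKM at 14.5 dpp, passed the filter on low values through the explants alone, and the other 3 did not.

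Inducible heat shock genes, another early stress response, were called in 0 of 5 at D6, D16, D22 and D28 against 14.5 dpp. By limma, 3 had an unadjusted p under 0.05 for D16, D22 and D28 and 0 for D6. The D28 differences of the list ran from -0.72 for Hsph1 to 0.46 for Hspa1b. Hspa1b had a limma adjusted p of 0.0361 and missed the call by its ratio of medians, 1.26 at D28. The sixth gene of that list, Hsp90aa1, was listed at 0 in every library.

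**Figure D5:**
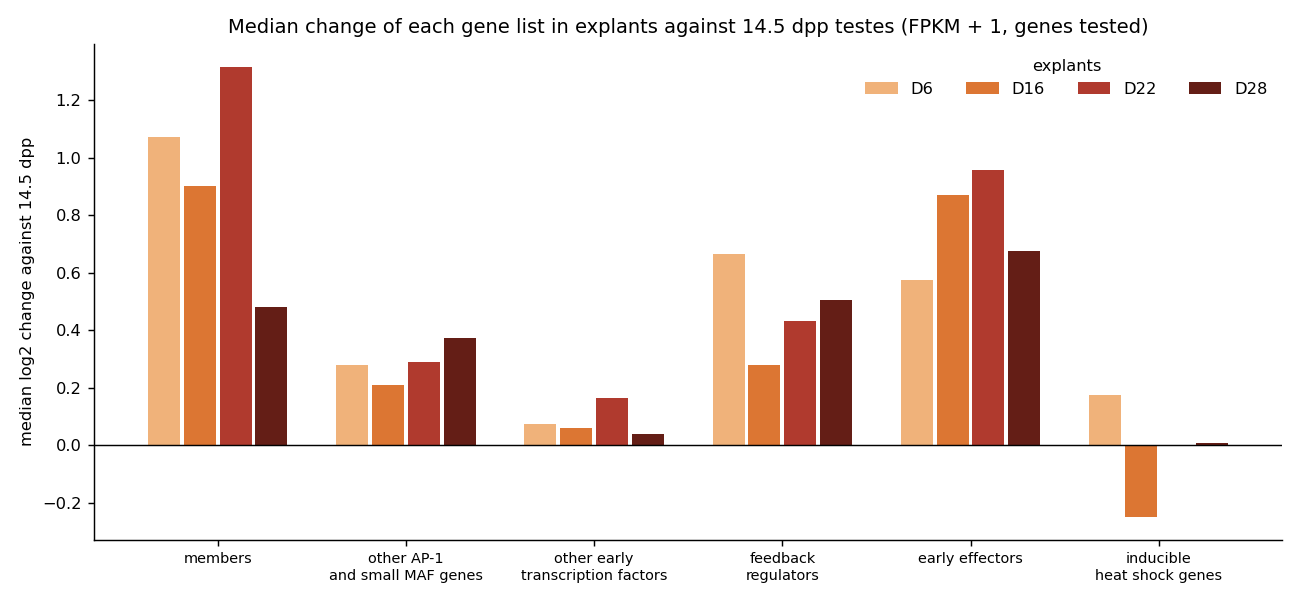
Median log2 change (vertical axis, FPKM + 1) of the members and of 5 other gene lists in explants against 14.5 dpp testes, with a bar for each culture time. The members reach 1.32 at D22 and 0.48 at D28, and the heat shock list lies between -0.25 and 0.17.

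Markers of cell types differed between explants and 14.5 dpp testes too. Macrophage markers (Cd68, Csf1r, C1qa, C1qb, Cd163, Mrc1, Adgre1 and Cd14) were higher in 4 of 7 tested at D28 (7.64% of all genes), with Cd14 (2.34, limma adjusted p = 1.81e-04) and C1qb (1.57, 0.0221) the furthest. Their sum was 38.3 and 35.4 FPKM at 14.5 dpp and 58.8, 53.7 and 59.5 FPKM at 8.5 dpp, and 78.5, 70.0 and 86.8 FPKM at D6 and 70.3, 73.6 and 72.1 FPKM at D16. C1qa was the most abundant of them in explants and Cd163 was listed at 0 in all explant groups, while Adgre1, called along with Cd68, was at 0.0994 FPKM at 14.5 dpp and passed the filter on low values through the explants alone. Endothelial markers (Pecam1, Cdh5, Kdr, Tek and Emcn) were higher in 2 of 5 at D28, Kdr (1.54) and Pecam1 (1.11), and lower in 1, Emcn (-0.95). They summed to 33.0 and 26.8 FPKM at 14.5 dpp and 71.5, 47.6 and 57.6 FPKM at D28, with Cdh5 the most abundant at D28 and none of the 5 at 0.

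Leydig markers (Cyp17a1, Insl3, Star, Cyp11a1 and Lhcgr) were lower in 4 of 5 at D28 (6.00% of all genes), with Cyp17a1 at -5.65 and Insl3 at -3.63. Their sum was 88.0 and 201 FPKM at 14.5 dpp, where the 2 libraries differed more than 2-fold, and 8.42, 8.30 and 8.99 FPKM at D28. Peritubular smooth muscle markers (Acta2, Myh11, Cnn1, Tagln and Des) were lower in 4 of 5 at D28 and summed to 517 and 314 FPKM at 14.5 dpp and 105, 119 and 138 FPKM at D28. Stromal markers (Pdgfra, Dcn, Col1a1, Lum and Dpt) were higher in 2 of 5, Lum (1.37) and Dcn (1.08), while Dpt (-1.13, adjusted p = 0.0811), Col1a1 (-0.14) and Pdgfra (0.05) were not called. Sertoli markers were called in 0 of 7 at D28. Of these, 4 had a limma adjusted p under 0.05 but a ratio of medians under 2. They were Fshr (0.88, 0.0136), Cldn11 (0.18, 0.0159), Amh (-0.82, 0.0230) and Sox9 (-0.44, 0.0407). The 7 together summed to 890 and 858 FPKM at 14.5 dpp and 897, 995 and 918 FPKM at D28. Cldn11 was the most abundant of them, with means of 430 FPKM at 14.5 dpp and 488 FPKM at D28. Of the germ cell markers, Ddx4 was lower (-1.08) among 5 of spermatogonia and spermatocytes. Among spermatid markers 0 of 4 tested were called, with 3 at an unadjusted p under 0.05. Of these, Spaca1 (-0.43) had a limma adjusted p of 0.0181 and a ratio of medians of 1.51. The part of these cell types in the levels of the members was not tested.

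The genes whose course over the 10 groups was most like that of the members were named from the Pearson correlation of group means with the mean standardised profile of the members. Over 10 groups they were Irak4 (r = 0.991), Stbd1 (0.991), Map3k8 (0.989), Icam2 (0.989), Pecam1 (0.988), Adap2 (0.988), Lama4 (0.987) and Tgm2 (0.987). The members themselves ranged from 0.890 for Dusp1 to 0.986 for Btg2. Each member is part of that mean profile, which raises its r, so these values are not to be set against those of other genes. Tgm2 was the most abundant of the 8, at 63.3 FPKM in the 14.5 dpp mean and 152 FPKM at D28, and Pecam1 is also 1 of the endothelial markers. These values describe groups that share libraries with all other comparisons and carry no test.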

How the data were processed

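Tissues were testes of 6 ages and explants of 4 culture times. Deposited values are FPKM per gene made by the authors from reads aligned to rn6 with STAR 2.5.2a, per the labels. Per the study's methods, these were 50 bp single-end reads of stranded libraries, with transcripts quantified by StringTie and Ballgown. The file has 30 libraries, of which the 14.5 dpp library labelled outlier was left out, and 17172 of 17322 gene IDs were matched to a RefSeq symbol. Total reads were not given, so no counting interval was computed.

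Tests used limma 3.58.1 in R 4.3.3 on log2(FPKM + 1), on genes whose median reached 0.5 FPKM in any group compared, with Benjamini-Hochberg adjustment over all genes tested. A moderated F test compared D16, D22 and D28 with 14.5 dpp, as in the study. Other tests were 2-group fits, F tests over ages and culture times, and the change of the explant difference from D6 to D28, which had no fold threshold. Calls needed a ratio of medians of 2, for F tests over several groups that of the highest to the lowest. Figures used matplotlib 3.10.9 with Python 3.11.15, pandas 2.3.3 and numpy 2.4.6. Replicate numbers were checked for pairing of explants with testes of the same age, of D6 with 8.5 dpp and of each culture time with the one before: correlations of deviations from the group mean over 12762 genes lay between -0.126 and 0.189, so libraries were taken as unpaired. The procedure was tested on simulated data.

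The members and lists were chosen with earlier results of these data known, and 108 of 109 symbols were found. Named genes of each list were up to 4 with the largest absolute log2 difference between D28 and 14.5 dpp, and genes of counts up to 6 and others outside this rule were named after their values were seen. Alternatives were a pseudocount of 0.1, no filter, a filter at 2 FPKM, median-ratio and quantile scaling, a trended robust prior, no fold threshold, a replicate block, all 10 groups in 1 fit, a test of each contrast and leaving out each library.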

Additional observations from a re-analysis of the deposited data

Results flagged for a closer look

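The difference between explants and testes of the same age was larger at D28 than at D6 for 5 of the 10 members, by a limma test of the change itself in a fit of all 10 groups. The change was 2.99 on the log2 scale for Jun (adjusted p = 7.65e-10), 2.66 for Btg2 (4.11e-08), 2.57 for Ier2 (4.00e-07), 2.32 for Ier3 (1.52e-08) and 1.36 for Zfp36 (1.19e-04). Across the other settings and the libraries left out, the change of Zfp36 ran from 0.737 to 1.59. Over all genes the median change was 0.58, and 51.8% of genes were called higher, so the share of members was no larger than that of all genes. Median-ratio scaling brought the median over all genes to 0.08. What the change rests on was not tested.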

How the results depend on the processing

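Of 994 member values recomputed under other settings, 965 kept their direction and their side of the threshold, 19 passed it newly, 7 fell short of it and 3 changed sign. With 1 library left out, the same held for 1127 of 1200, while 30 passed newly, 28 fell short and 15 changed sign. No value that changed sign was called.

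Under median-ratio scaling the difference of Ier2 between D16 and 14.5 dpp was 0.047, and the changes of the explant difference from D6 to D28 were -0.088 for Fos and -0.011 for Junb. Without any fold threshold, 5 members were called at D28 against 14.5 dpp. Over the culture times 0 members were called with no filter, 2 with a filter at 2 FPKM, 2 with quantile normalization and 4 with all 10 groups in 1 fit. The cause was not tested. Fosb had no value where a scaling or filter took it under the filter on low values.

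The members called with 1 library left out ranged from 3 to 6 at D16, 4 to 7 at D22, 3 to 4 at D28 and 4 to 5 at D6 against 14.5 dpp. They ranged from 8 to 10 in vivo, 0 to 5 over culture times and 5 to 7 for the change of the explant difference, and stayed at 6 at D6 against 8.5 dpp and at 10 for each later culture time against testes of the same age. Where leaving out a library changed the sign of a member's log2 difference, its values ran as follows. For Jun they ran from -0.35 to 0.56 at D16, from -0.18 to 0.73 at D22, from -0.20 to 0.71 at D28 and from -0.32 to 0.59 at D6 against 14.5 dpp, and from -0.080 to 0.26 over culture times. For Ier2 they ran from -0.15 to 0.14 at D16, from -0.35 to 0.033 at D28 and, at D6 against 8.5 dpp, from -0.082 to 0.016. For Zfp36 over culture times they ran from -0.18 to 0.11, and for Fos from -0.13 to 0.78 in the change of the explant difference. A single library left at 14.5 dpp is assumed to vary like the other groups.

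With a replicate block, 4 members were called at D6 against 14.5 dpp, 6 at D22, 10 in vivo and 7 for the change of the explant difference, with Fos at 1.57 (limma adjusted p = 0.0793) and Fosb at 0.58 (0.109) no longer called at D6. In the replicate block 292 genes were called higher at D6 against 14.5 dpp in place of 630. Without the fold threshold, 1806, 1798 and 1793 genes were called higher at D16, D22 and D28 in place of 755, 845 and 880, and 1033 in place of 630 at D6. There were 3038 in place of 1109 at D6 against 8.5 dpp, 4727 in place of 2946 at D16 against 24.5 dpp, and 1156 in place of 393 higher at D28 than at D6. With 1 library left out, 332 to 597 genes were called higher at D6 against 14.5 dpp. The lists other than the members were computed with the settings of the report alone. Read totals were not given, so the precision that depth gives to low levels such as those of Fosb is unknown.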
